A study of Homo sapiens with 6 samples.

Results

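The data described here are 848 long terminal repeat (LTR) elements whose RNA was found in the AT/RT cell line CHLA 06 and in neither CHLA 04 nor CHLA 05. The members were chosen by their LTR values in these lines. An element was a member when the product of its TPM (reads per base of its length, scaled to a fixed total per library) and its length in bases was at least 10000 in both CHLA 06 libraries, and its TPM was 0 in both CHLA 04 libraries and in CHLA 05. CHLA 02 was left free. The members were 848 of 720177 annotated elements, 117684 of which had a read in any library. Of the 7928 elements that met the threshold in both CHLA 06 libraries, 10.7% were members. The rule used the values of CHLA 04, CHLA 05 and CHLA 06, so those values are given as a description. The values of CHLA 02, and the family, position and strand of the elements, were not used by it.

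LTRs flank the coding part of an endogenous retrovirus, the remnant of a germline infection by a retrovirus, and they hold its promoter and its polyadenylation signal. Most LTRs in the human genome are solitary, left behind when a pair recombined and the internal part was lost. The oldest and most numerous groups are the MaLR elements (MLT1, MST and THE1) and ERVL, while HERV-E, HERV-9 and HERV-K (HML-2) entered the genome later. RNA over an LTR can start in the LTR itself, or the LTR can be carried passively in a longer RNA such as an unspliced host transcript.

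AT/RT, or atypical teratoid rhabdoid tumor, is a malignant tumor of the central nervous system in young children, typically with loss of the chromatin remodeling subunit SMARCB1. Total RNA of 4 such lines, grown without treatment in DMEM:F12 with EGF, basic FGF and B-27, was sequenced as 6 stranded libraries. CHLA 04 and CHLA 06 had 2 technical replicates each, whereas CHLA 02 and CHLA 05 had 1 library. Each line was thus 1 biological sample, so no test between lines was made and the spread between 2 technical replicates is the only error available. Earlier work cited by the study placed CHLA 06 in a different tumor group than the other lines, which were called neurogenic.

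Between 355302 and 511408 reads per library lay on LTR elements, and 10265899 to 20520229 on transcripts. The threshold corresponded to 9.76 and 10.4 reads in the CHLA 06 libraries. SMARCB1 was at 13.5 to 26.2 TPM in the 6 libraries, although the study states that the lines lacked its expression. A sum of TPM over transcripts does not show which parts of the gene were read, and it is not a measure of protein. Of the neurogenic list, DLL3 and MYCN were both at 69.6 TPM or more in CHLA 04 and CHLA 05 and below 1 TPM in CHLA 06, and HES5 was at 1.66 to 9.27 and 0 TPM. BOC and GLI2 were lower but present in CHLA 06, at 9.47 to 22.3 TPM compared with 102 to 663 in CHLA 04 and CHLA 05, whereas PTCH1 was at 200.5 and 107 TPM in CHLA 06 and 208 to 244 there. Of the list for the MYC group, MYC and HOXB2 were at least 4-fold higher in CHLA 06, HOXC10 was near 2 TPM and HOTAIR was at 0. Of the list for the TYR group, TYR was at 0 in every library, and PMEL, DCT and OTX2 were at 0.234 to 0.619 TPM in CHLA 06. MITF was lower in CHLA 06, at 1.43 and 0.874 TPM compared with 2.85 to 6.13 in CHLA 04 and CHLA 05. Only BMP4 of this list was high in CHLA 06, at 277 to 379 TPM. Of the neural list, PAX6 was at 0.604 and 0.937 TPM in CHLA 06 and 26.2 to 36.9 in CHLA 04 and CHLA 05. NES, SOX2 and TUBB3 had no such gap. Of the mesenchymal list, COL1A1 and COL3A1 were at 459 to 1332 TPM in the CHLA 06 libraries and at most 11.5 in CHLA 04 and CHLA 05, whereas TWIST1 was at 0.310 and 0.141 TPM in CHLA 06 and at least 7.19 there. The blood markers PTPRC and HBB were at or near 0.

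The CHLA 02 library stood apart from its group label. DLL3 was at 172 TPM there, MYCN at 26.3 and MYC at 79.7, each between its value in CHLA 04 and the higher CHLA 06 value, and COL1A1 was at 387 TPM. Among 1854 genes that differed at least 4-fold on the TPM + 2 scale between the means of CHLA 04 and CHLA 06, CHLA 02 lay between both in 93.7%, and CHLA 05 did so in 67.3%. Cells of CHLA 02 that transcribe both sets of genes and a CHLA 02 library that holds RNA of both lines cannot be told apart with 1 library. No member was chosen with CHLA 02, and every value of CHLA 02 is given separately.

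The central 300 bases of the MLT1A0 on chromosome 10 (chr10:60415934-60416233, plus strand) are shown because this element had the most reads, summed over both CHLA 06 libraries, of the members of MLT1, the largest family group. The sequence is from GRCh38, written 5′ to 3′ on the strand of the element. Capitals mark a match on either strand to a TATA box written as TATAAA, to the polyadenylation hexamer AATAAA or to the MYC E-box CACGTG. The window holds AATAAA at 1 place and neither of the others.
MLT1A0: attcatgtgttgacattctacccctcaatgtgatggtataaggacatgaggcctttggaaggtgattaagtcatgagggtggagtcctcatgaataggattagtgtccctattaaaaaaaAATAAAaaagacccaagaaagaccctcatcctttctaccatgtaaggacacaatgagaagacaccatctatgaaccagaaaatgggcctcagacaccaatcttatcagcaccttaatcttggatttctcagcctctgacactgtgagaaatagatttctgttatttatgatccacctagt

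These letters were about as frequent in the members as elsewhere. Of 725 members of at least 300 bases, 44 (6.07%) held CACGTG, the E-box bound by MYC, in their central 300 bases, compared with 5.79% of the 387091 elements of that length. TATAAA was found in 30.5% of these members and 30.8% of all such elements. AATAAA, the core of the polyadenylation signal, was found in 29.2% and 30.2%. A match of 6 letters is a description of the sequence and not a binding site.

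The members took 10.3% (Wilson 95% interval 10.2 to 10.4) and 9.73% (9.65 to 9.82) of the LTR reads of the CHLA 06 libraries, and 3.46% (3.41 to 3.51) of those of CHLA 02. In CHLA 04 and CHLA 05 they had no read, as the rule required. These zeros were chosen, so they give no upper limit on the share there. Without CHLA 04 replicate 1 the rule gave 903 elements, and without replicate 2 it gave 949. The elements gained had a read in the replicate left out. Intervals cover counting error only. In bulk libraries, fewer cells with an RNA and less of it per cell cannot be told apart. The median member had 65.4 and 64.6 TPM in CHLA 06, from 27 and 29 reads, and 25.2 TPM from 11 reads in CHLA 02. For scale, the lower CHLA 06 value of a member was 2.56-fold to 719-fold the highest value that 3 reads give in CHLA 04 or CHLA 05. Since the zeros were chosen, this is not a lower limit on the difference between lines. For a member of the median length of 414 bases, 3 reads correspond to 6.51 to 9.68 TPM in those libraries, so that lower levels there may have been missed. The limit of 3 reads was chosen, since 1 read already kept an element out.

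The technical replicates of CHLA 06 differed little over the set and more for single elements. The ratio of the second to the first library had a median of 0.988 and an SD of 0.512 on the log2 scale over all members. With at least 50 reads in both libraries (190 members), this SD was 0.367. Few members held an exact repeat of read length, whereas near copies and reads shortened by trimming were not checked. Of 846 members of at least 125 bases, the read length, 810 (95.7%) had no 125-base window that occurs a second time in GRCh38, and 4 had fewer than 50% of their windows occurring once.

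The 12 members with the highest product of TPM and length took 22.4% and 23.2% of the members' reads in the CHLA 06 libraries. They lay at 7 places of the genome. By the rule every member was at 0 in CHLA 04 and CHLA 05, so only its values in CHLA 06 and CHLA 02 are given.

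The leading member was the internal part of a HERV-E provirus, HERVE_a-int, at chr3:157579687-157587547 on the minus strand. HERV-E is a class I endogenous retrovirus whose LTR is named LTR2. The internal part had 464.8 and 366.3 TPM in CHLA 06 (3567 and 3004 reads) and 100.3 TPM in CHLA 02 (794 reads). The LTR2 on its 3′ side (chr3:157579228-157579682) was a member with 355 and 260 reads in CHLA 06 and 85 in CHLA 02. The LTR2 on the 5′ side (chr3:157587548-157588006) had 3 reads in each CHLA 06 library and none elsewhere. The LTRs of the same provirus thus differed in reads. The 3′ LTR had 97.3% of its 125-base windows occurring once in GRCh38, and the 5′ LTR, not a member, was not checked for this. The provirus lies inside PQLC2L but on its opposite strand, and 46.1 kb before the start of VEPH1, which has the strand of the provirus. VEPH1, a pleckstrin homology domain protein, was at 489 and 469 TPM in CHLA 06 and 346 in CHLA 02. Its levels were 1.89 and 3.05 TPM in the CHLA 04 libraries, with 0.976 in CHLA 05. It held another 11 members, all on its own strand.

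The second member was HERV9NC-int at chr13:23525258-23531378 on the plus strand, the internal part of a HERV-9 provirus. It had 285.9 and 499.9 TPM in CHLA 06 (1708 and 3192 reads) and 69.9 in CHLA 02 (431 reads). Its replicates differed more than those of the HERV-E element and in the opposite direction. The LTR12C on its 5′ side (chr13:23524463-23525256) was also a leading member, with 310.9 and 486.6 TPM in CHLA 06 and 91.3 in CHLA 02. The 3′ LTR12C (chr13:23531380-23532857) had 410 and 814 reads in CHLA 06, but 1 read in each CHLA 04 library and in CHLA 05 kept it out. The provirus lies outside genes, 22.4 kb after LINC00352 and 39.0 kb before TNFRSF19, a receptor of the TNF receptor family with the same strand. TNFRSF19 was at 920 and 747 TPM in CHLA 06, 378 in CHLA 02, 38.9 and 36.4 in CHLA 04 and 1.39 in CHLA 05.

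The third member was a THE1C on the minus strand at chr14:68100874-68101246, with 3460.5 and 2603 TPM in CHLA 06 (1260 and 1013 reads) and 492.6 in CHLA 02 (185 reads). It had the highest TPM of all members in CHLA 06. It lies in RAD51B, a DNA repair gene of the opposite strand. The THE1C-int beside it (chr14:68101247-68102806) had 8754 and 6421 reads in CHLA 06, more than any member, and 1 read in a CHLA 04 library kept it out. The second THE1C of this element (chr14:68102807-68103161) was a member with 152 and 115 reads. As in the HERV-E provirus, the LTR on the 5′ side had fewer reads than the LTR on the 3′ side.

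Members 4, 6, 7 and 8 lay within 40 kb on chromosome 10, between chr10:60412145 and chr10:60451338 on the plus strand, inside ANK3 and opposite to it. From left to right they were an MLT2B1 with 898 and 671 TPM in CHLA 06 and 393 in CHLA 02, an LTR78 with 1292 and 1118 and 581, the MLT1A0 shown above with 1706 and 1347 and 791, and an MLT1C with 1036 and 885 and 425. All were lower in the second CHLA 06 library, and their ratios of CHLA 02 to CHLA 06 were alike at 0.442 to 0.518. ANK3, which encodes ankyrin-G, was at 786 and 562 TPM in CHLA 06, 353 in CHLA 02 and at most 3.19 in CHLA 04 and CHLA 05.

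The remaining leading members were an MLT1J2 (chr4:174100184-174100530) and an MLT1A0 (chr4:174158344-174158681) on the strand of the long noncoding RNA RP11-148L24.1, a THE1C-int (chr6:93386088-93387551) on the strand of the ephrin receptor gene EPHA7, and a HERVL-int (chr3:22024613-22028919) opposite to ZNF385D. The MLT1J2 had 1296 and 1566 TPM in CHLA 06 and 590 in CHLA 02. The MLT1A0 had 1145.6 and 1009.7 in CHLA 06 and 449.5 in CHLA 02. Both lie in a gene at 100.1 and 91.6 TPM in CHLA 06, 68.5 in CHLA 02 and at most 0.115 in the other lines. The THE1C-int had 322 and 176 TPM in CHLA 06 and 47.5 in CHLA 02, and EPHA7 was at 506 and 268 TPM in CHLA 06, 102 in CHLA 02 and at most 0.221 elsewhere. The HERVL-int had 64.7 and 79.2 TPM in CHLA 06 and 33.9 in CHLA 02. The 5 members with the highest TPM in CHLA 02 were all among these 12.

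**Figure D1:**
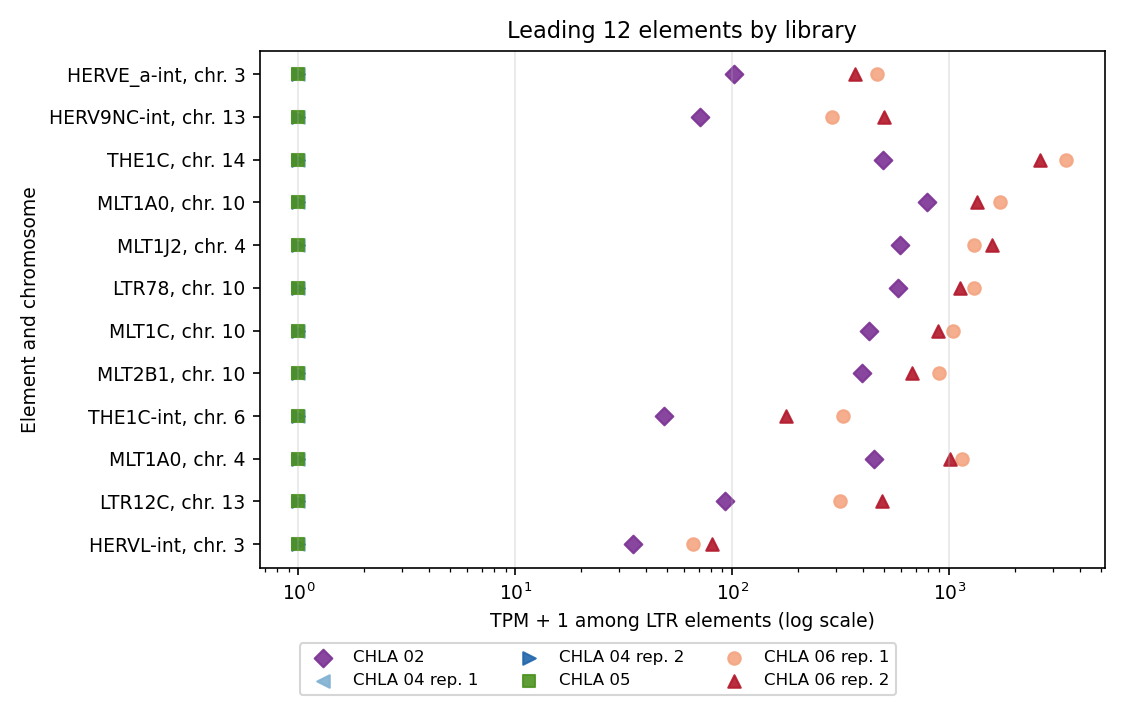
TPM + 1 on a log scale of the 12 leading elements, named by element and chromosome, with 1 point for each of the 6 libraries. The points of CHLA 04 and CHLA 05 lie on top of each other at a TPM of 0, CHLA 02 lies between 33.9 and 791 TPM, and both CHLA 06 points lie to the right of CHLA 02 in every row.

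CHLA 02 was the line in which the members could be looked for without use of the rule. A read was found there for 836 of 848 members (98.6%), compared with 8.33% of all LTR elements and 99.7% of the elements that met the threshold in CHLA 06. The share was thus near that of every well-read element of CHLA 06. The threshold itself was met in CHLA 02 by 444 members (52.4%) and by 72.2% of the elements at the threshold in CHLA 06. The median ratio of CHLA 02 to CHLA 06 was 0.357, with quartiles of 0.242 and 0.497, and 19 members were higher in CHLA 02. Among the 190 members with at least 50 reads in both CHLA 06 libraries, the median ratio was 0.347 and its SD was 0.635 on the log2 scale, wider than the 0.367 between the technical replicates. The lower read numbers of the members in CHLA 02 add counting error to the former.

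The same rule was applied with the lines exchanged to see how CHLA 02 related to each. Elements at the threshold in both CHLA 04 libraries and at 0 in CHLA 05 and CHLA 06 numbered 362, and 99.2% of them had a read in CHLA 02. For CHLA 05, where the threshold had to be met in its only library, there were 253 such elements. Of these, 13.8% had a read in CHLA 02 and 0 met the threshold there. Elements read only in CHLA 06 were few. Of the 848 members, 12 had no read in CHLA 02, with 10 to 32 reads in the CHLA 06 libraries. They included an MSTA on chromosome 3 (chr3:157227378-157227801, 29 and 17 reads), an MSTB1 on chromosome 5 opposite to CWC27 (22 and 23 reads) and a HERVH-int on chromosome 13 (32 and 14 reads). At the chosen limit of 3 reads, RNA of up to 7.20 TPM at the median length may have been missed in CHLA 02.

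**Figure D2:**
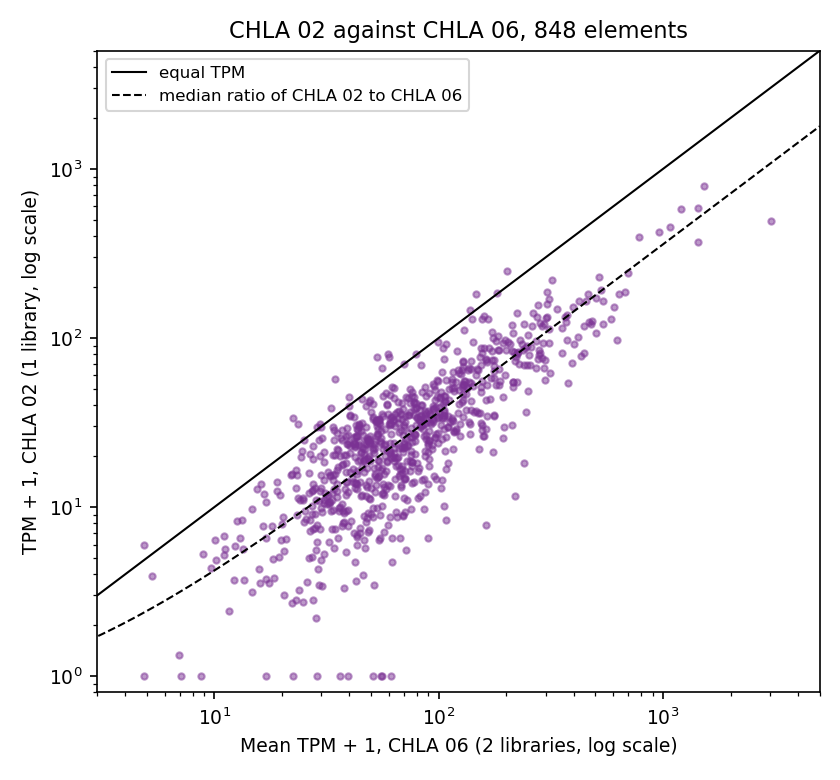
TPM + 1 of the 848 elements in CHLA 02 (vertical) against the mean of the 2 CHLA 06 libraries (horizontal), both on log scales, with 1 point per element. Most points lie below the line of equal TPM and around the dashed line of the median ratio of 0.357, and the 12 elements without a read in CHLA 02 lie at the bottom.

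By family, the members were mostly the common MaLR elements. MLT1 gave 283 members (33.4%), compared with 32.8% of all LTR elements and 26.5% of those at the threshold in CHLA 06. THE1 gave 104 (12.3%, compared with 8.21% and 10.7%) and MST 78 (9.20%, compared with 7.04% and 8.97%). MLT2, the LTR of ERVL, gave 39 members (4.60%, compared with 4.55% and 2.83%). LTR12 and HERV9 gave 16 (1.89%, compared with 0.849% and 2.12%) and HERV-E with LTR2 gave 6 (0.708%, compared with 0.269% and 0.732%). Single elements carried most reads of the last 2 groups. Of 2881 and 4485 reads on members of LTR12 and HERV9 in the CHLA 06 libraries, HERV9NC-int had 1708 and 3192, and of 4060 and 3406 reads on members of HERV-E, HERVE_a-int had 3567 and 3004. MLT1 and MLT2 thus had about their share of all elements, and THE1, MST, LTR12 with HERV9 and HERV-E had a higher share, as the elements at the threshold in CHLA 06 also did.

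The members had 238 names, 124 of which occurred once. The 10 most frequent names held 258 members (30.4%). They were MLT1D (42 members), MSTA (32), MLT1A0 (30), THE1B (29), MLT1C (28), THE1C (27), MLT1B (22), and MLT1I, MLT1K and THE1D (16 each). THE1C made up 3.18% of members, 1.36% of all elements and 1.60% of those at the threshold in CHLA 06. Chromosome 3 held 160 members, of 48805 elements and 629 at the threshold in CHLA 06. Chromosome 2 held 87, of 58436 and 659, and chromosome 10 held 58, of 29978 and 348. Members of a chromosome were not independent, since ZNF385D held 48, LSAMP 28 and KCNMB2 23 of those on chromosome 3.

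**Figure D3:**
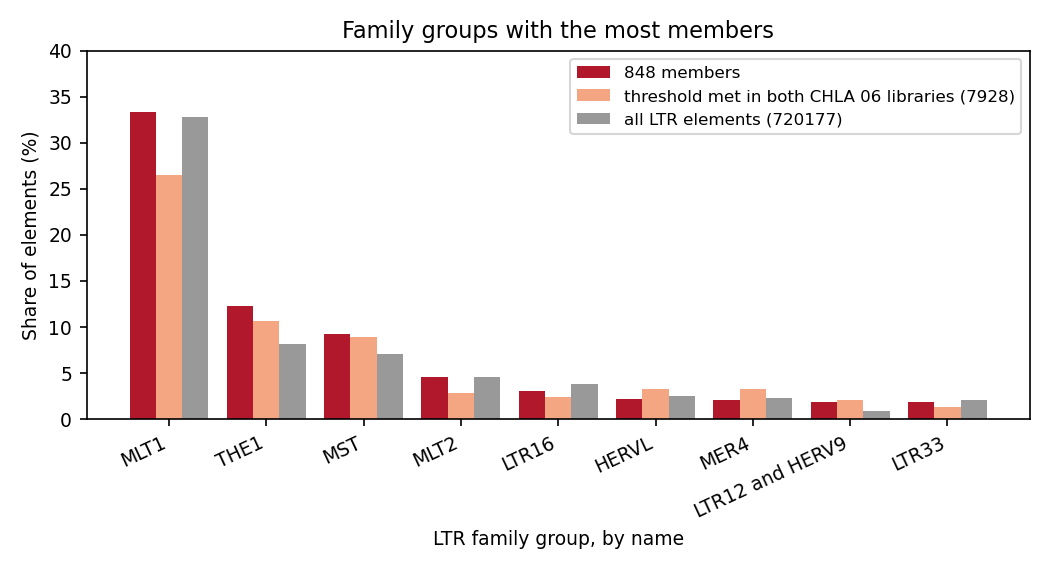
Share of elements in percent for the 9 named family groups with the most members, with bars for the 848 members, the 7928 elements at the threshold in both CHLA 06 libraries and all 720177 elements. MLT1 is the largest group in each, at 33.4%, 26.5% and 32.8%.

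Members named HERVK or LTR5 numbered 5 (0.590%), compared with 0.542% of all LTR elements and 2.43% of those at the threshold in CHLA 06. An HML-2 locus on chromosome 22 held 3 neighbouring members on the strand of PCAT14, a long noncoding RNA made from this locus. The LTR5B (chr22:23537740-23538729) had 36.2 and 51.3 TPM in CHLA 06 (35 and 53 reads) and 6.02 in CHLA 02. A HERVK-int of 271 bases (chr22:23546306-23546576) had 79.4 and 134.4 TPM in CHLA 06 and 7.33 in CHLA 02, and an adjacent MER11A (chr22:23546901-23547896) had 81.3 and 121.3 TPM and 11.97. All 3 were higher in the second CHLA 06 library. The main internal part (chr22:23538730-23546008) had 1138 and 1529 reads in CHLA 06 and 171 in CHLA 02, and was not a member because of 5 reads in a CHLA 04 library and 4 in CHLA 05. PCAT14 was at 19.6 and 27.4 TPM in CHLA 06, 3.23 in CHLA 02 and at most 0.418 in CHLA 04 and CHLA 05. The other members with such a name were HERVK9-int on chromosome 11 (chr11:110396732-110399510, 47 and 50 reads), HERVK9-int on chromosome 1 inside ACOT11 (31 and 15 reads) and HERVK14-int on chromosome 12 (13 and 13 reads). No member was named LTR5_Hs or LTR5A. LTRs that belong to other HERV-K groups also gave members, namely MER11A (5 members, with the one above), MER11C (3), and MER11B, MER11D, MER9a2, MER9a3, LTR13 and LTR14B (1 each).

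The members lay close together. When neighbours at most 50 kb apart were joined, 695 members (81.96%) fell into 135 clusters of at least 2, and 153 stood alone. In 121 of the 135 clusters all members had the same strand. Neither share is given for other well-read elements, so these traits are not shown to be particular to the members. Elements of a cluster can be parts of 1 RNA and are not independent of each other. In the spans of these clusters, elements that were not members but had the strand of most members had a read in CHLA 06 in 370 of 521 cases (71.0%), and those of the other strand in 227 of 852 (26.6%). In CHLA 06, elements outside the set were thus also read more often on the strand of most members.

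The cluster with the most members had 33, at chr8:130934181-131314902, 29 of them on the plus strand. It overlaps CTD-2501M5.1, a noncoding RNA of that strand at 2.78 and 5.31 TPM in CHLA 06, and the 5′ part of ADCY8, an adenylyl cyclase of the other strand. Its members had 1077 and 1164 reads in CHLA 06 and 188 in CHLA 02. The ratio of CHLA 02 to CHLA 06 was 0.168 here, below the median of 0.372 over the 135 clusters, and 3 of the 12 members without a read in CHLA 02 were in it.

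In 3 of the 8 largest clusters the members ran up to a gene of the same strand that was higher in CHLA 06. The 32 members at chr14:53967577-54302746 were all on the minus strand, lay in no gene and ended 8.82 kb before the start of BMP4, a growth factor of the bone morphogenetic protein family. Each had a read in CHLA 02, and their TPM in CHLA 06 ran from 23.4 to 146. BMP4 was at 379 and 277 TPM in CHLA 06, 220 in CHLA 02, 0.410 and 1.61 in CHLA 04 and 0.0800 in CHLA 05. The 28 members at chr2:185455546-185737290 were all on the plus strand and ended 1.34 kb before FSIP2, a gene of sperm tail structure, at 14.2 and 13.8 TPM in CHLA 06, 11.6 in CHLA 02 and at most 0.0375 elsewhere. The 21 members at chr12:46848168-47020293 were all on the minus strand and ended 15.8 kb before SLC38A4, an amino acid transporter. SLC38A4 was at 224 and 160 TPM in CHLA 06, 109 in CHLA 02 and at most 0.155 elsewhere.

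Other large clusters lay opposite to a gene. The 26 members at chr3:21957277-22092793 were all on the plus strand, opposite to the zinc finger gene ZNF385D, and 2 of them overlapped ZNF385D-AS2. The 25 members at chr3:115787094-116050462 included 20 opposite to LSAMP, a neuronal adhesion molecule that was at 0.0703 and 0.0620 TPM in CHLA 06, 0.498 in CHLA 02, 0.333 and 1.27 in CHLA 04 and 30.9 in CHLA 05. LSAMP was thus highest in CHLA 05, where the members were at 0. The 15 members at chr14:67937333-68161532 were all on the minus strand, opposite to RAD51B. RAD51B was at 43.2 and 39.4 TPM in CHLA 06, 30.7 in CHLA 02, 18.2 and 16.7 in CHLA 04 and 9.63 in CHLA 05. The noncoding gene CTD-2566J3.1 in this cluster was at 36.8 and 44.5 TPM in CHLA 06, 12.5 in CHLA 02 and 0 elsewhere. The 18 members at chr9:94413684-94577633 were on both strands, 13 minus and 5 plus, around FBP2 and HIATL1.

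**Figure D4:**
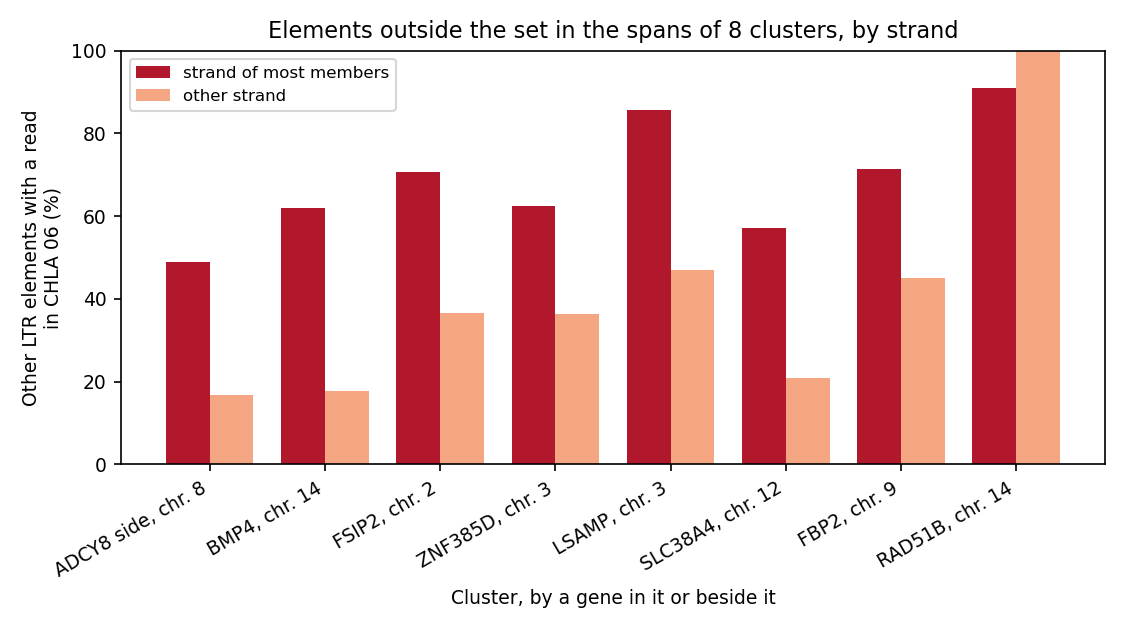
Percent of the LTR elements outside the set, in the spans of the 8 largest clusters, that had a read in either CHLA 06 library, by strand (that of most members or the other). In 7 of 8 clusters the share is higher on the strand of most members, and the exception at RAD51B has 3 such elements on the other strand.

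Over the 41 clusters with at least 5 members, 21 had a gene of the members' strand in them that was at least 4-fold higher in CHLA 06, and these held 182 members. In another 7 clusters (104 members) the nearest following gene of that strand within 500 kb was higher, in 3 (17 members) the nearest preceding one, and in 10 (147 members) none of these. Genes of at least 1 TPM in CHLA 06 were considered, of which 3.31% were higher. On the other strand of the same 41 spans, such a gene lay in 4 clusters, was the nearest following one in another 12 and the nearest preceding one in 9, and in 16 there was none. Higher genes in the span were thus mostly on the members' strand. Each cluster was counted only at the first place that applied, in the order given. Genes beside a span with a higher gene in it were left out, so these counts do not compare the strands for genes beside the span. Examples of following genes on the members' strand were TGFBR2, the type II receptor of TGF-β, 124.9 kb after 8 members on chromosome 3, and ARHGAP28, 3.30 kb after 5 members on chromosome 18.

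Genes contained 519 members (61.2%), compared with 40.5% of all LTR elements and 77.6% of those at the threshold in CHLA 06. Of 480 members with overlapping genes on 1 strand, 336 (70.0%) had the strand of the gene, compared with 36.3% of all elements and 93.0% of those at the threshold. The members were thus more often outside genes or opposite to them than other well-read elements, 95.2% of which, members left out, had the strand of their gene. In the sets made with the lines exchanged, 40.6% of the CHLA 04 set and 56.5% of the CHLA 05 set lay in genes. A low share in genes was thus not particular to the members, and strand was not looked up for these sets. An exon was overlapped by 45 members, 38 on its strand, and 803 overlapped none. Exon overlap was looked up for the members alone. The libraries were made with a stranded kit from total RNA, which also holds unspliced RNA. Whether the counting used strand is not given in the sources used here, so reads of overlapping genes of both strands may not be separable.

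The members fell into 203 genes, 185 of which had a TPM above 0 in a library. Of these, 98 (53.0%) were at least 4-fold higher on the TPM + 2 scale in both CHLA 06 libraries than in every CHLA 04 and CHLA 05 library, compared with 2.01% of all 22532 genes above 0. This comparison used the lines of the rule and is a description. In CHLA 02, all 98 were above every CHLA 04 and CHLA 05 value, with a median ratio to CHLA 06 of 0.531, and the same held for all 452 genes that were higher in CHLA 06, with a median of 0.578. Of 139 genes with members only on their own strand, 89 (64.03%) were higher. Of 36 genes with members only on the other strand, 2 were higher, CALCB and CAV2. Of 10 genes with members of both strands, 7 were higher. The median difference of the log2(TPM + 2) values between CHLA 06 and the higher of CHLA 04 and CHLA 05 was 3.04 for genes with members on their own strand, 0.20 for those with members on the other strand and -0.19 over all genes.

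Among the 10 host genes with the highest TPM in CHLA 06, 8 were higher by this measure. TES, which encodes the focal adhesion protein testin, was at 1099 and 753 TPM in CHLA 06, 361 in CHLA 02 and at most 0.481 elsewhere. SCN9A, a voltage-gated sodium channel, was at 695 and 531 TPM in CHLA 06, 294 in CHLA 02 and at most 2.59 elsewhere. TGFBI, an extracellular matrix protein, was at 813 and 374 TPM in CHLA 06, 170.5 in CHLA 02 and at most 0.148 elsewhere. TGFBI had the widest gap between replicates of the 10. HGF, hepatocyte growth factor, was at 522 and 408 TPM in CHLA 06, 313 in CHLA 02 and at most 1.19 elsewhere. PRSS23, a serine protease, and SRPX were at 437 ± 23.2 and 430.2 ± 82.9 TPM in CHLA 06 (SD, n = 2 technical replicates) and at most 13.3 and 4.24 in CHLA 04 and CHLA 05. ANK3 and VEPH1, given above, complete the 8.

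The other 2 held members on the opposite strand alone and did not reach 4-fold above every CHLA 04 and CHLA 05 library. SLIT2, the ligand of ROBO receptors, was at 755 and 675 TPM in CHLA 06, 468 in CHLA 02, 30.6 and 17.6 in CHLA 04 and 382 in CHLA 05. IGF1R, the receptor of insulin-like growth factor 1, was at 532 and 338 TPM in CHLA 06, 159.7 in CHLA 02, 82.1 and 86.6 in CHLA 04 and 146.8 in CHLA 05.

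At least 3 members were held by 51 genes, and 33 of them were higher in CHLA 06. Of 32 with members on their own strand alone, 26 were higher, and of 10 with members on the other strand alone, 0 were. ZNF385D held the most, 22 on its strand and 26 opposite, and was at 76.6 and 60.1 TPM in CHLA 06, 42.1 in CHLA 02 and at most 0.256 elsewhere. KCNMB2, a regulatory subunit of the calcium-activated BK potassium channel, held 23 and was at 52.4 and 37.5 TPM in CHLA 06, 35.6 in CHLA 02 and 0 in the other lines. KCNMA1, the pore subunit of the same channel, held 3 and was at 289 and 307 TPM in CHLA 06, 157 in CHLA 02 and at most 8.84 elsewhere. The overlapping genes RP11-385J1.3 and KCNMB2-AS1 share the KCNMB2 members and were below 1 TPM in CHLA 06.

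ANO3 (15 members), an anoctamin, was at 72.5 and 94.6 TPM in CHLA 06, 41.1 in CHLA 02 and at most 0.0465 elsewhere. HPSE2 (15), a heparanase homologue, was at 17.1 and 15.0 TPM in CHLA 06 and 0 in CHLA 04 and CHLA 05. HTR7 (9), a serotonin receptor, was at 42.4 and 48.2 TPM in CHLA 06. The same pattern was found for the receptor phosphatase PTPRR (10 members), the SLIT receptor ROBO2 (8), KIAA1217, RASGRF2, CCDC102B and ADCY8 (7 each), LINC01091 (8), CTA-392E5.1 (7), PQLC2L (7), ARHGAP15 (6), HMCN1 and RP11-136K7.2 (5 each), and FMN1, FMO1 and LYPD6B (4 each). With 3 members each it was found for TRABD2A, SP100, OSBPL10, CUBN, PCAT14, FREM1, FLG-AS1, LINC01014 and APOBEC3G. APOBEC3G, a cytidine deaminase that restricts retroviruses, was at 22.6 and 23.4 TPM in CHLA 06, 18.3 in CHLA 02 and 0 in the other lines.

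Among the genes with 3 or more members that were not higher, PDE4D (8 members), a cAMP phosphodiesterase, was at 294 and 202 TPM in CHLA 06, 254 in CHLA 02, 207 and 264 in CHLA 04 and 13.4 in CHLA 05, so that its members were at 0 in a line with the gene at a like level. COX7A2L (3 members on its strand) was at 115 and 93.8 TPM in CHLA 06 and 58.6 to 66.8 in CHLA 04 and CHLA 05. HIATL1 (3 members, opposite) was at 34.2 and 53.8 TPM in CHLA 06 and 40.5 to 64.9 there. The others were AC008163.4, listed at 0 TPM in every library, RP11-96H19.1, RP11-550I24.2, AC010091.1, FBP2, AC007966.1, LSAMP and RAD51B, opposite to all their members, and CTD-2501M5.1, RP11-176N18.2, RP5-972B16.2, MIR31HG and a noncoding gene on chromosome 11, all below 18 TPM in CHLA 06.

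**Figure D5:**
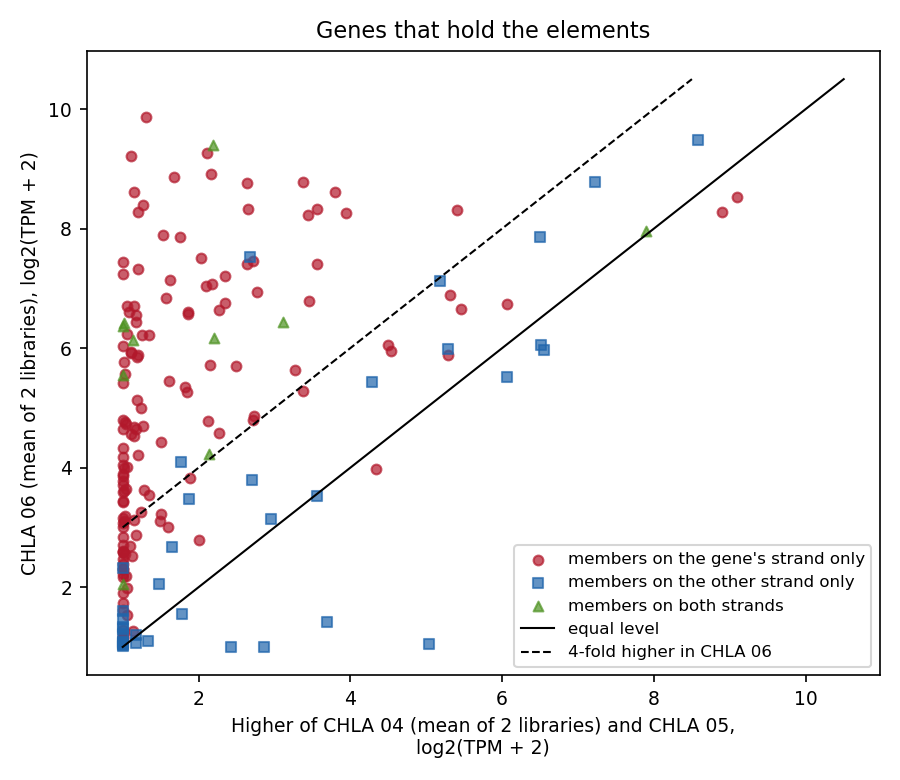
Level of the 185 host genes above 0 TPM in CHLA 06 (vertical, mean of 2 libraries) against the higher of CHLA 04 and CHLA 05 (horizontal), both as log2(TPM + 2), with 1 point per gene marked by the strand of its members. Genes with members on their own strand lie mostly above the dashed line of 4-fold, and those with members on the other strand lie mostly below it.

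The edge of the set was set by single reads. The 3 members with the lowest product, an MLT1E1A on chromosome 2, a MER4-int on chromosome 20 and an MLT1D on chromosome X, had 10 reads in the first CHLA 06 library and 12, 22 and 15 in the second, at products of 10241 to 10242. The 3 elements just below, an MLT1D on chromosome 16, an LTR1A2 on chromosome 3 and an MLT1E2 on chromosome 18, had 10 reads in the second library and 13, 15 and 10 in the first, at a lower product of 9588. No other element at 0 in CHLA 04 and CHLA 05 had its lower product between these values.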

How the data were processed

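The deposited files held TPM values, 1 file of transcripts and 1 of RepeatMasker LTR elements for each of the 6 libraries. The authors used Trimmomatic on the 125-base paired reads and the CLCbio workbench to place them on GRCh38, and they scaled TPM within each file, so that gene and LTR values are not on 1 scale. FastQC and CASAVA 1.8.2 are named in the submitters' processing notes, and other versions are not given in the sources used here. LTR values had been rounded to 2 decimals.

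TPM times length was divided by the value that 1 read adds, which gave whole read numbers within a tolerance of 0.1, and this step was tested on simulated data. Gene TPM was the sum over transcripts. Host genes were those whose span overlapped an element. A pseudocount of 2 TPM was used for gene folds. Sequences were read from GRCh38. Python 3.11.15, pandas 2.3.3 and numpy 2.4.6 were used.

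No test was made, since each line was 1 biological sample. The members and lists were chosen with earlier results of these data known. Named elements, by rule, were the 12 leading members, the 3 on each side of the threshold, all members named HERVK or LTR5 and the 5 highest in CHLA 02, with the 10 commonest names, the 8 largest clusters, genes with at least 3 members and the 10 host genes with the highest TPM. CALCB, CAV2, VEPH1 as a neighbour, TGFBR2, ARHGAP28, the elements beside leading members and the examples without a read in CHLA 02 were chosen after their values were seen. Alternatives were other thresholds, gaps, pseudocounts, filters and folds, and leaving out each replicate.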

Additional observations from a re-analysis of the deposited data

How the results depend on the processing

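The threshold moved the number of members most. It was 1463 at 5000, 496 at 20000, 880 with 10 reads and 1157 with at most 1 read allowed in CHLA 04 and CHLA 05, and 903 to 1068 when a replicate was left out. The looser forms of the rule hold all 848 members by construction, and the threshold of 20000 kept 496 of them. At 20000, 495 of 496 had a read in CHLA 02 and 321 (64.7%) lay in genes. With the threshold applied to CHLA 02, 444 of 848 were present. Clusters held 519 members at a gap of 10 kb and 764 at 200 kb, and 745 to 894 when a replicate was left out. With genes above 0 TPM alone, 503 members lay in genes and 341 of 473 (72.1%) had the strand of their gene. Host genes higher in CHLA 06 numbered 139 and 116 with pseudocounts of 0.1 and 1, 136 at 2-fold, 98 under both other filters and 103 to 118 when a replicate was left out. The share of all genes was 4.15% at a pseudocount of 0.1 and 4.44% at 2-fold. No paired analysis was possible because no result came from a test and CHLA 02 and CHLA 05 had 1 library. Depth limits the zeros, since RNA at a level of up to 3 reads in a CHLA 04 or CHLA 05 library may have been missed. The median member had 27 and 29 reads in CHLA 06.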

Other observations

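Sharing between CHLA 02 and 1 other line was seen over genes as well. Of all genes, 77 were at 5 TPM or more in CHLA 02 and both CHLA 06 libraries and below 0.1 TPM in CHLA 04 and CHLA 05, and 7 were so in CHLA 02 and CHLA 04. At 5 TPM or more in 1 line and below 0.1 TPM in the other 3 there were 23 genes for CHLA 05 and 0 each for CHLA 02, CHLA 04 and CHLA 06. Among LTR elements, 0 met the threshold in CHLA 02 and were at 0 in the other lines, whereas 218 elements were so for CHLA 05, 12 for CHLA 06 and 3 for CHLA 04. CHLA 04 and CHLA 06 had to reach the limits in both libraries, CHLA 02 and CHLA 05 in their only library. These counts were thus not equally strict.

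The largest differences between the technical replicates of CHLA 06 fell on neighbouring members in some cases. The THE1C and the THE1C-int at chr2:166436161 and chr2:166436534 had 38 and 216 reads in the first library and 13 and 77 in the second. At chromosome 4, an MLT2A1 had 23 reads in the first library and 97 in the second.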
